A study of Mus musculus with 12 samples.

Results

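Immortalized mouse embryonic fibroblasts (MEFs) homozygous for the G2A allele of Rpt2 (labelled Rpt2G2A/G2A) were compared with wild-type (WT) MEFs by RNA sequencing. Neither group was treated. The 5 libraries used, G2A 1 and 2 and WT 1 to 3, were taken from 12 samples in all. The labels list 1 more G2A MEF sample, G2A 3, which was not analysed here, and 6 fetal livers, which serve below for 1 comparison. Values were reads per gene divided by 1 size factor per library, called normalized reads from here on. Of 24421 genes in the MEF table, 13241 reached at least 10 normalized reads in at least 2 libraries and were tested. The labels do not say how the cells were immortalized, or whether libraries of a genotype came from separate embryos, lines, clones or cultures. The p-values therefore measure only the spread between these libraries, which may be technical.

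As background, Rpt2 is the product of Psmc1 and is 1 of the ATPase subunits in the 19S regulatory particle of the proteasome. The 20S core particle of this machine degrades proteins tagged with ubiquitin, and the ATPase ring unfolds them and feeds them in. Rpt2 carries a myristoyl lipid on the glycine that follows its initiating methionine, attached by the N-myristoyltransferases Nmt1 and Nmt2. The G2A allele replaces that glycine with alanine, to which the lipid cannot be attached. Embryonic fibroblasts are mesenchymal cells that lay down collagen-rich matrix and keep a record of their place in the body in the Hox genes that they express.

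The codon at stake is shown first. Psmc1 (ENSMUSG00000021178.8) lies on the + strand of chromosome 12 at 101348396 to 101361574 in NCBIM37. The first 60 bases of its reference coding sequence follow, with the glycine codon at position 2 in capitals.
Psmc1 coding start: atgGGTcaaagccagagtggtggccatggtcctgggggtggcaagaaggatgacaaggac
A substitution in this codon leaves the gene transcribed, so the read values below do not check the genotype of any library.

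The depth of the 5 libraries was close, from 36415586 to 37695116 reads in genes. WT 3 lay apart from WT 1 and WT 2. On the first principal component, which held 73.4% of the variance of log2(value + 1), WT 1 was at -87.2 and WT 2 at -92.0, against 72.5 for WT 3, 51.5 for G2A 1 and 55.2 for G2A 2. The second component held 17.9% and set WT 3, at 59.5, apart from G2A 1 at -35.1 and G2A 2 at -33.0. Across genes, the Pearson correlation of WT 3 was 0.890 with WT 1 and 0.882 with WT 2, but 0.953 with G2A 1 and 0.958 with G2A 2. WT 1 and WT 2 correlated at 0.984 and both G2A libraries at 0.988.

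Genes that mark the sex and body position of the cells split the libraries in the same way. Xist, the RNA that silences an X chromosome in female cells, had 2 reads in WT 1, 0 in WT 2, 40791 in WT 3, 9842 in G2A 1 and 13578 in G2A 2. The 4 Y-linked genes Ddx3y, Eif2s3y, Kdm5d and Uty together had 6302 reads in WT 1, 5669 in WT 2, 0 in WT 3, 72 in G2A 1 and 0 in G2A 2. Genes of the Hoxc cluster on chromosome 15 summed to 3 reads in WT 1, 2 in WT 2, 10911 in WT 3, 10250 in G2A 1 and 9307 in G2A 2. Those of the Hoxd cluster on chromosome 2 summed to 17633 reads in WT 1 and 16275 in WT 2, against 691 in WT 3, 600 in G2A 1 and 515 in G2A 2. WT 1 and WT 2 thus carried the Y-linked genes and a high Hoxd sum, while WT 3 and both G2A libraries carried Xist and high Hoxb and Hoxc sums. A difference between G2A and the WT 1 and WT 2 libraries cannot be told apart from a difference between cells of these kinds. WT 3 also lay apart from both G2A libraries, on the second component and in the interferon genes described below. A difference between G2A and WT 3 therefore cannot be told apart from a difference in kind of cells either. Counts over all genes are therefore given with all libraries, without WT 3, and with the Xist class (Xist high or not) as a term in the model. That term sets both G2A libraries against WT 3 and takes the spread from the other pairs, so passing there carries the limit given for WT 3. For lists and single genes, settings other than all libraries are given only in part. A list near the shares of all genes with all libraries need not be so without WT 3.

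**Figure D1:**
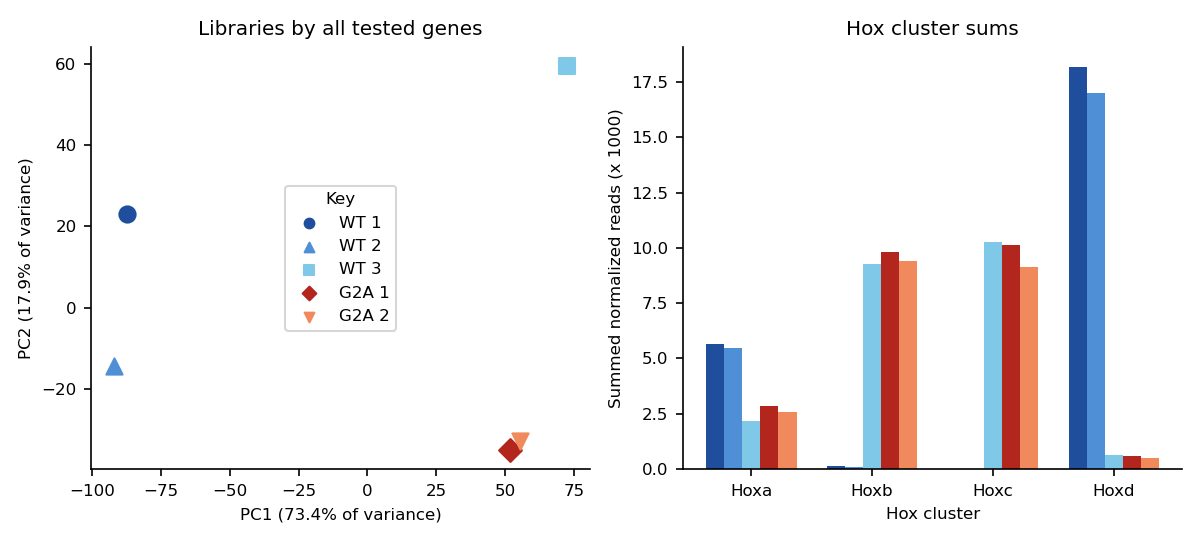
Left, the 5 libraries on the first and second principal components of log2(normalized reads + 1) over the 13241 tested genes. Right, the summed normalized reads of each Hox cluster in each library; WT 3 sits with the G2A libraries in all 4 clusters, with Hoxc sums of 10254, 10108 and 9124 against 3.09 and 2.09 in WT 1 and WT 2.

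With all 5 libraries, no gene passed an adjusted p of 0.05 in limma's moderated test with Benjamini-Hochberg adjustment, in either direction (0% of 13241). Before adjustment, p was under 0.05 for 913 genes with higher and 990 with lower G2A values. On reads recovered from the same values, edgeR's quasi-likelihood test also called 0, whereas DESeq2 called 391 genes higher (2.95%) and 644 lower (4.86%). DESeq2 gave no adjusted p for 615 genes, which count as not called in these shares. Among them were Hoxc6 and Srd5a2, where WT 3 lay far from WT 1 and WT 2. Both G2A values lay above all 3 WT values in 2496 genes (18.9%) and below them in 2383 (18%), so that the groups did not overlap in 36.8%. Without WT 3, limma called 1550 genes higher (11.7%) and 1525 lower (11.5%). With the Xist class in the model it called 212 higher (1.6%) and 245 lower (1.85%). Among the 3075 genes called without WT 3, the WT 3 value lay nearer to the G2A mean than to the mean of WT 1 and WT 2 in 2253 (73.3%), compared with 57.4% of all tested genes. Genes that were both called without WT 3 and free of overlap with all 3 WT libraries numbered 779 higher and 903 lower. The percentages of all tested genes given here are the background for the counts of list members below.

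The 10 genes with the smallest p in each direction are described first. They were chosen on these libraries, so that G2A values outside the WT range, which all 20 had, follow nearly from the choice and are given as a description, as are the adjusted p values below. In the limma test their adjusted p ran from 0.127 to 0.269 with all libraries. It was at most 0.00702 without WT 3 and at most 0.0473 with the Xist class, so that all 20 passed there, as all did in DESeq2. The smallest adjusted p that edgeR gave any gene was 0.240 with all libraries.

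The lower genes included secreted and signalling products of mesenchymal cells. Mmp2, a gelatinase that cleaves denatured and basement membrane collagen (chromosome 8, 95351227 to 95377316), had 4256, 3359 and 2654 normalized reads in WT 1, 2 and 3, against 343 and 302 in G2A 1 and 2. Every WT value was thus far above both G2A values, and the log2 difference was -3.38 (SE 0.22). Tgfb2, a TGF-beta ligand (chromosome 1, 188447065 to 188529871), stood at 3592, 2867 and 3031 in WT against 816 and 828 in G2A, a log2 difference of -1.94 (SE 0.14). The WT 3 values of both genes were among the WT values and not near those of G2A, a trait that the choice of genes favours. Unc5c, a netrin receptor, had 3985, 2468 and 2468 in WT and 294 and 342 in G2A, a log2 difference of -3.19 (SE 0.26). Ednrb, the endothelin B receptor, had 890, 699 and 804 in WT and 159 and 184 in G2A. Plagl1, an imprinted zinc finger gene that restrains growth, had 5068, 3492 and 4675 in WT and 1065 and 840 in G2A. These 3 genes again showed no overlap, and their G2A libraries lay close to each other.

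Marcks, whose protein is a myristoylated substrate of protein kinase C that binds actin and the plasma membrane, was also among them. It stood at 15644, 11914 and 13513 in WT and 4575 and 5281 in G2A, a log2 difference of -1.47 (SE 0.16). Lims2, a focal adhesion adaptor, had 630, 613 and 466 in WT and 98.6 and 114 in G2A. The other lower genes were Ifi27 (log2 difference -2.30), the cyclic nucleotide phosphodiesterase gene Pde8a (-1.11) and the chromatin factor gene Arid5b (-1.32). None of these had a G2A value inside the WT range.

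Among the higher genes, Rhob, a small GTPase of endosomes and actin, had 6586, 6712 and 6847 normalized reads in WT against 11603 and 12336 in G2A, a log2 difference of 0.83 (SE 0.10). The WT libraries, WT 3 included, lay within a narrow band. Dock8, an activator of the GTPase CDC42, had 282, 251 and 219 in WT and 1108 and 753 in G2A (log2 difference 1.87, SE 0.25). Etv4, an ETS factor induced by FGF and ERK signalling, had 1198, 1144 and 1463 in WT and 3016 and 2608 in G2A (log2 difference 1.15, SE 0.16). Zwint, a kinetochore component, had 4596, 4974 and 5531 in WT and 9039 and 9205 in G2A. The G2A values of each exceeded the highest WT value.

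A few higher genes were nearly silent in WT. C3ar1, the receptor for complement fragment C3a, had 2.06, 2.09 and 9.40 normalized reads in WT and 243 and 278 in G2A. Its log2 difference was 5.82 (SE 0.74) and ranged from 4.65 to 6.89 over 17 alternatives, since low WT values make it depend on the pseudocount and the libraries used. Mcpt8, a protease known from basophils, had 4.12, 9.40 and 5.64 in WT and 148 and 166 in G2A, a log2 difference of 4.48 (SE 0.55). In both genes all G2A values were above all WT values. The acyltransferase gene Mogat2 (log2 difference 1.94), Btbd11 (1.12) and the ribosomal protein gene Rpl21 (0.77) completed the group. Rpl21 has near-identical copies elsewhere in the genome, and how its reads were assigned is not given in the sources used here.

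**Figure D2:**
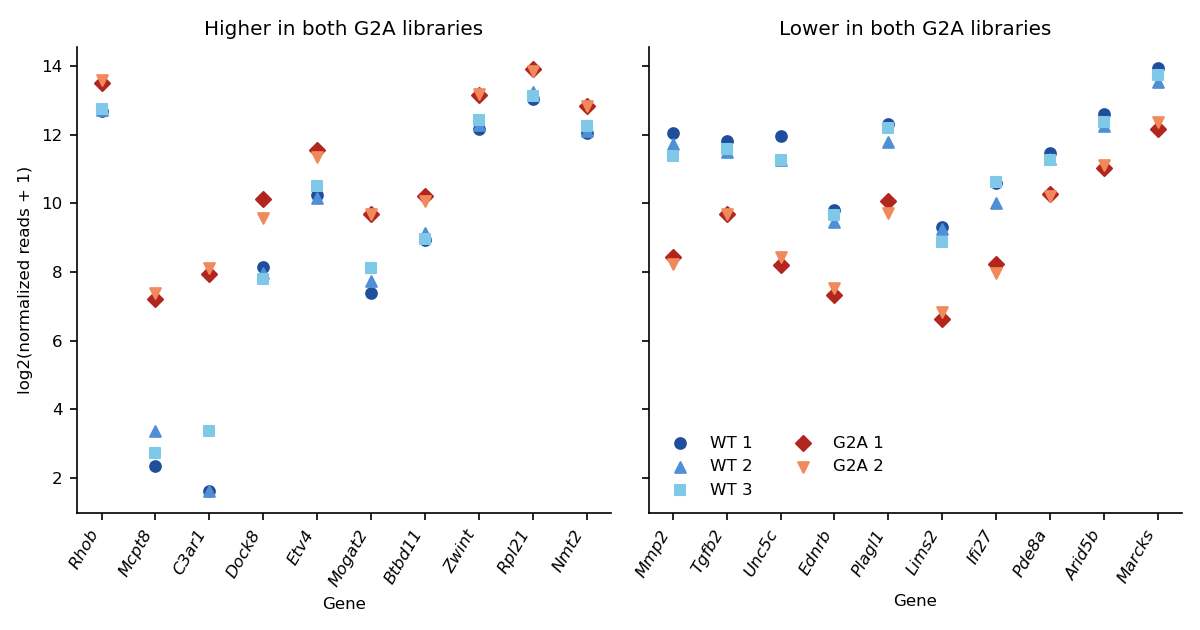
Normalized reads on the log2(value + 1) scale in each library (1 point per library) for the 10 genes with the smallest p in each direction. In all 20 genes both G2A points lie outside the 3 WT points, and WT 3 lies nearer to the other WT points than to the G2A points. The choice of genes by p, with WT 3 in the test, favours both traits. Mmp2 stood at 2654 to 4256 in WT and at 302 and 343 in G2A.

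Both N-myristoyltransferase genes were higher in G2A. Nmt1 (chromosome 11, 102889504 to 102930226) had 4273, 5061 and 4887 normalized reads in WT and 6968 and 6909 in G2A, a log2 difference of 0.55 (SE 0.12). Nmt2 (chromosome 2, 3201484 to 3246149) had 4268, 4433 and 4883 in WT and 7287 and 7347 in G2A, a log2 difference of 0.69 (SE 0.11). For both, the lowest G2A value was above the highest WT value, and the limma adjusted p was 0.269 with all libraries. Nmt2 passed without WT 3 (adjusted p 0.00348) and with the Xist class (0.0473), and Nmt1 passed without WT 3 (0.0175) but not with the Xist class (0.0822). Over the 17 alternatives the adjusted p of Nmt1 ran from 0.000958 to 0.989 and that of Nmt2 from 4.09e-07 to 0.989. Of 14 tested genes that encode these enzymes or well known myristoylated proteins, 4 were higher and 2 lower without overlap. These were 28.6% and 14.3%, beside 18.9% and 18% of all genes. The median log2 difference was 0.11 beside 0.015 for all tested genes. The kinase gene Src, whose product is anchored by the same lipid, overlapped between the groups, at 5063, 6431 and 4556 in WT and 6144 and 5870 in G2A.

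Proteasome subunit genes lay on the higher side in G2A. Psmc1 itself had 7393, 8589 and 6485 normalized reads in WT and 10658 and 10913 in G2A, a log2 difference of 0.54 (SE 0.15). Both G2A values were above all WT values. The limma adjusted p was 0.282 with all libraries, 0.0339 without WT 3 (log2 difference 0.44) and 0.0489 with the Xist class (0.73), and ran from 0.00210 to 0.989 over the 17 alternatives. All 33 subunit genes of the core and regulatory particles had a log2 difference above 0, against 51.6% of all tested genes, and without WT 3 all but Psmc3 (-0.01) did. In 27 of the 33 (81.8%, beside 18.9% of all genes) both G2A values exceeded all WT values, and in the other 6 the groups overlapped. The median log2 difference was 0.38, a 1.30-fold difference, with a range from 0.11 to 0.75. None passed in limma with all libraries (smallest adjusted p 0.269). Without WT 3, 15 of the 33 passed, and in DESeq2 17 did, all of them higher. The shares of all genes called higher there were 11.7% and 2.95%. With the Xist class, where WT 3 is the lone WT library compared, only the size is given for the 33 genes, a median log2 difference of 0.47.

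The core particle holds the proteolytic sites in its beta subunits. Psmb3 showed the highest difference of the subunits, with 4298, 4891 and 5463 normalized reads in WT and 8114 and 8274 in G2A (log2 difference 0.75, SE 0.13). Psmb6, which carries the caspase-like site, had 4016, 4476 and 5487 in WT and 6765 and 7104 in G2A (0.59, SE 0.16, and 0.34 with the Xist class). Psmb5, which carries the chymotrypsin-like site, had 2570, 3113 and 2551 in WT and 3689 and 3559 in G2A (0.41, SE 0.13). In each of the 3 the G2A values were the highest, and 13 of the 14 core genes followed this order. The exception was Psmb2, at 5054, 6387 and 4503 in WT and 7226 and 6104 in G2A. Psma5, an alpha subunit, had a log2 difference of 0.51 (SE 0.10).

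Among the 6 ATPase genes of the regulatory particle, Psmc2 (log2 difference 0.60, SE 0.11), Psmc5 (0.52), Psmc4 (0.43) and Psmc1 lay above WT without overlap. Psmc3 and Psmc6 overlapped, with log2 differences of 0.14 and 0.11. Psmd3, a scaffold subunit of the lid, had 8593, 9530 and 9191 in WT and 13394 and 13529 in G2A, a log2 difference of 0.57 (SE 0.11). Psmd1, the large scaffold of the base, had 12383, 13446 and 11592 in WT and 17850 and 18910 in G2A. Across the 19 regulatory genes, 14 showed no overlap, and WT 3 was the lowest library on average, at 0.13 below the WT mean of the log2 values, against 0.37 and 0.40 above it in G2A 1 and G2A 2.

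**Figure D3:**
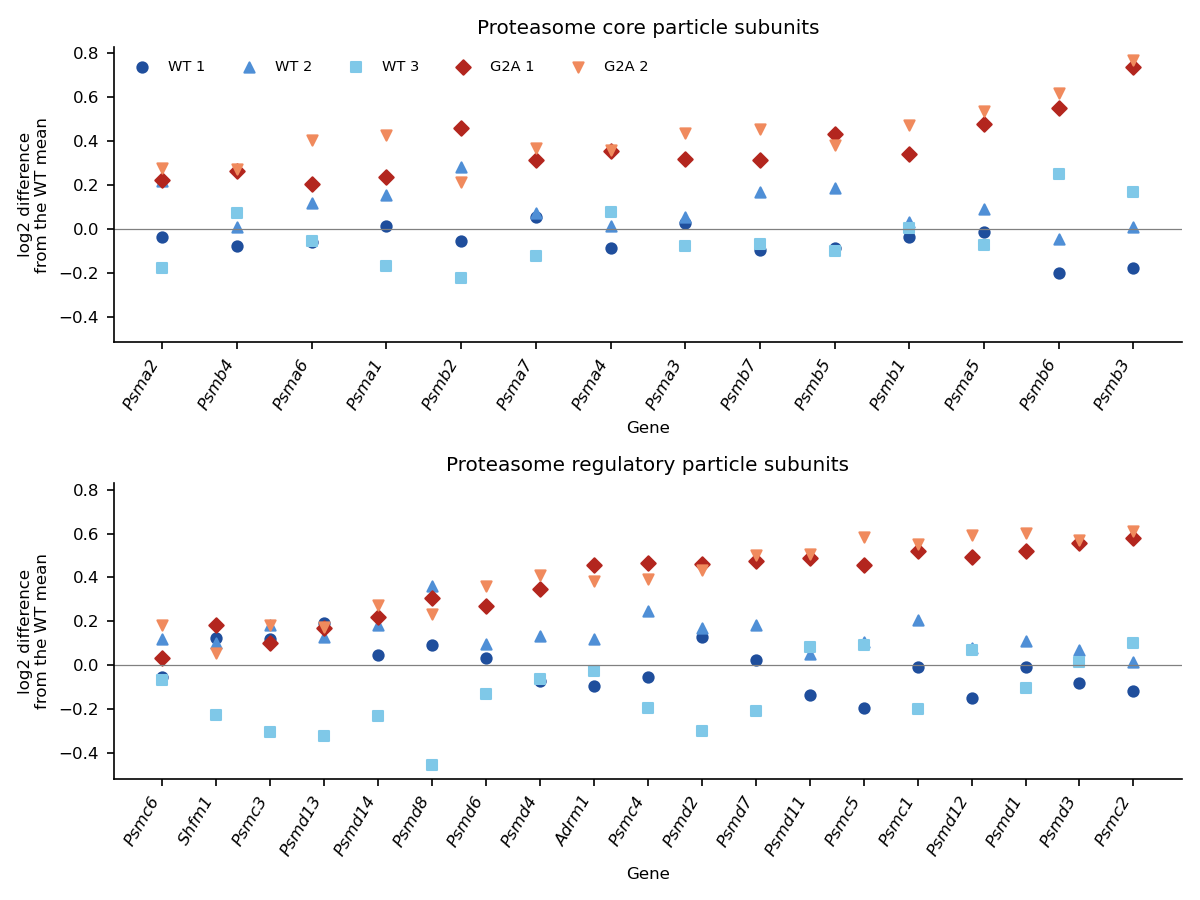
Each point is 1 library's log2(normalized reads + 1) minus the mean of the 3 WT libraries, for 14 core genes (top) and 19 regulatory genes (bottom) of the proteasome, ordered by the G2A minus WT difference. The G2A points lie above every WT point in 27 of the 33 genes, up to a mean difference of 0.75 in Psmb3.

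Assembly and accessory genes leaned to the higher side, with 10 above 0 and 6 below. Of 16 tested, 10 were higher and 1 was lower without overlap (62.5% and 6.25%, beside 18.9% and 18% of all genes). The median log2 difference was 0.29, and without WT 3 limma called 1 higher and 0 lower. The chaperone gene Psmd9, which acts in assembly of the ATPase ring, had 1652, 1636 and 1674 in WT and 2215 and 2117 in G2A (log2 difference 0.39, SE 0.10). The core maturation factor gene Pomp stood at 3037, 3457 and 3216 in WT and 3958 and 4506 in G2A (0.39, SE 0.12). Nfe2l1 encodes NRF1, the transcription factor that drives proteasome genes when proteasome activity falls. It had 7991, 7147 and 7272 in WT and 7355 and 6924 in G2A, and overlapped. Ngly1, which encodes an enzyme that NRF1 maturation needs, was the gene below the WT range, at 881, 636 and 832 in WT and 573 and 545 in G2A.

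Promoters were searched because the subunit genes lay on 1 side together. NRF1 and NRF2 bind the antioxidant response element, whose core is TGACNNNGC. RefSeq promoters (250 bases before to 50 after a gene's start, GRCm38.p6) matched 27 of the 33 genes by symbol, with 29 promoters. On either strand, TGACNNNGC stood in 6 of these 29 (20.7%), compared with 12.4% of all 32851 promoters. The less specific TGANNNNGC, which takes in every match of the first, was searched as well and stood in 17 of 29 (58.6%), against 41.3% of all promoters. These are matches of letters and show no binding. Promoters of the 2 catalytic subunit genes with a TGACNNNGC match are shown, with the match in capitals. That of Psmb6 is on the + strand at chr11:70525107-70525406 and that of Psmb5 on the - strand at chr14:54617946-54618245.
Psmb6 promoter: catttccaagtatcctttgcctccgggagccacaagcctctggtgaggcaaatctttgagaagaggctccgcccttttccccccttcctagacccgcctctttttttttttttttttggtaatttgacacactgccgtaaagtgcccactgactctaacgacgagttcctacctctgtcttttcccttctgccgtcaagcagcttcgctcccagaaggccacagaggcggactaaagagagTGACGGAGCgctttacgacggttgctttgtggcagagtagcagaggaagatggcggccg
Psmb5 promoter: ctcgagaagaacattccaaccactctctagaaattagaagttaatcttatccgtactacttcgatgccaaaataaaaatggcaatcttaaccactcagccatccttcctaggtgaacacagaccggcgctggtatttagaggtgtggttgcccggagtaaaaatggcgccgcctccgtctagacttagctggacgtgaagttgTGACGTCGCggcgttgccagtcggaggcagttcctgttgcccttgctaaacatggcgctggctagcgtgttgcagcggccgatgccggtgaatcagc

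In other branches of protein quality control, genes lay on both sides. Hspa5, the main chaperone of the endoplasmic reticulum (ER), had 34668, 33677 and 35038 normalized reads in WT and 26380 and 23884 in G2A, a log2 difference of -0.46 (SE 0.13). Its G2A values were the lowest 2, and WT 3 was level with WT 1 and WT 2. Of 17 ER chaperone genes, 5 were lower and 2 higher without overlap (29.4% and 11.8%, beside 18% and 18.9% of all genes). Nploc4, a cofactor of the VCP segregase that delivers substrates to the proteasome, had 5010, 4994 and 5481 in WT and 7150 and 7410 in G2A (log2 difference 0.50, SE 0.10). In its list of 26 genes of ER-associated degradation, 3 were higher and 6 lower without overlap (11.5% and 23.1%), near the shares of all genes.

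Genes of the integrated stress response, a kinase pathway that raises ATF4 and its targets, showed 6 lower and 0 higher without overlap among 24 tested. The 25% lower was near the 18% of all genes, and without WT 3 limma called 3 lower and 2 higher. Trib3, a pseudokinase induced by ATF4, had 1418, 864 and 1198 in WT and 421 and 387 in G2A (log2 difference -1.49, SE 0.24). Atf5, a stress-induced transcription factor, had 4562, 2851 and 3559 in WT and 1625 and 1404 in G2A (-1.25, SE 0.22). Both genes passed without WT 3 (limma adjusted p 0.0136 and 0.0165) and not with the Xist class (0.0567 and 0.0686). Heat shock genes showed 7 higher and 1 lower among 18 (38.9% and 5.56%, beside 18.9% and 18% of all genes), but without WT 3 the balance of calls was the opposite, with 1 higher and 4 lower. The cytosolic chaperone gene Hsp90aa1 had 43162, 50003 and 39937 in WT and 58385 and 58971 in G2A (0.41, SE 0.18), and did not pass without WT 3 (limma adjusted p 0.103). The co-chaperone gene Dnajb4 was the gene below the WT range, at 3493, 3202 and 1780 in WT and 1489 and 1656 in G2A (-0.79), and it passed without WT 3 (-1.09, adjusted p 0.00257), while its log2 difference was -0.18 with the Xist class. Among 17 NRF2 target and partner genes, 6 were higher (35.3%) and 1 was lower without overlap, and without WT 3 limma called 4 higher and 2 lower. The quinone reductase gene Nqo1 stood at 989, 918 and 788 in WT and 1388 and 1781 in G2A (0.81, SE 0.18). The malic enzyme gene Me1 had a log2 difference of 0.42 (SE 0.11), and Nfe2l2, which encodes NRF2, was the gene below the WT range, at 5751, 4666 and 4633 in WT and 3848 and 3670 in G2A. Among p53 targets and cell cycle inhibitors, 8 of 23 were lower and 2 higher without overlap (34.8% and 8.70%, beside 18% and 18.9% of all genes). Without WT 3, limma called 3 lower and 1 higher, beside 11.5% and 11.7% of all genes. Perp, a p53 target of cell adhesion (log2 difference -1.33, SE 0.31), and the death receptor gene Fas (-1.48, SE 0.39) were on the lower side. The lysosomal protease gene Ctsd had 22291, 20737 and 20445 in WT and 15108 and 14689 in G2A (-0.51, SE 0.12).

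**Figure D4:**
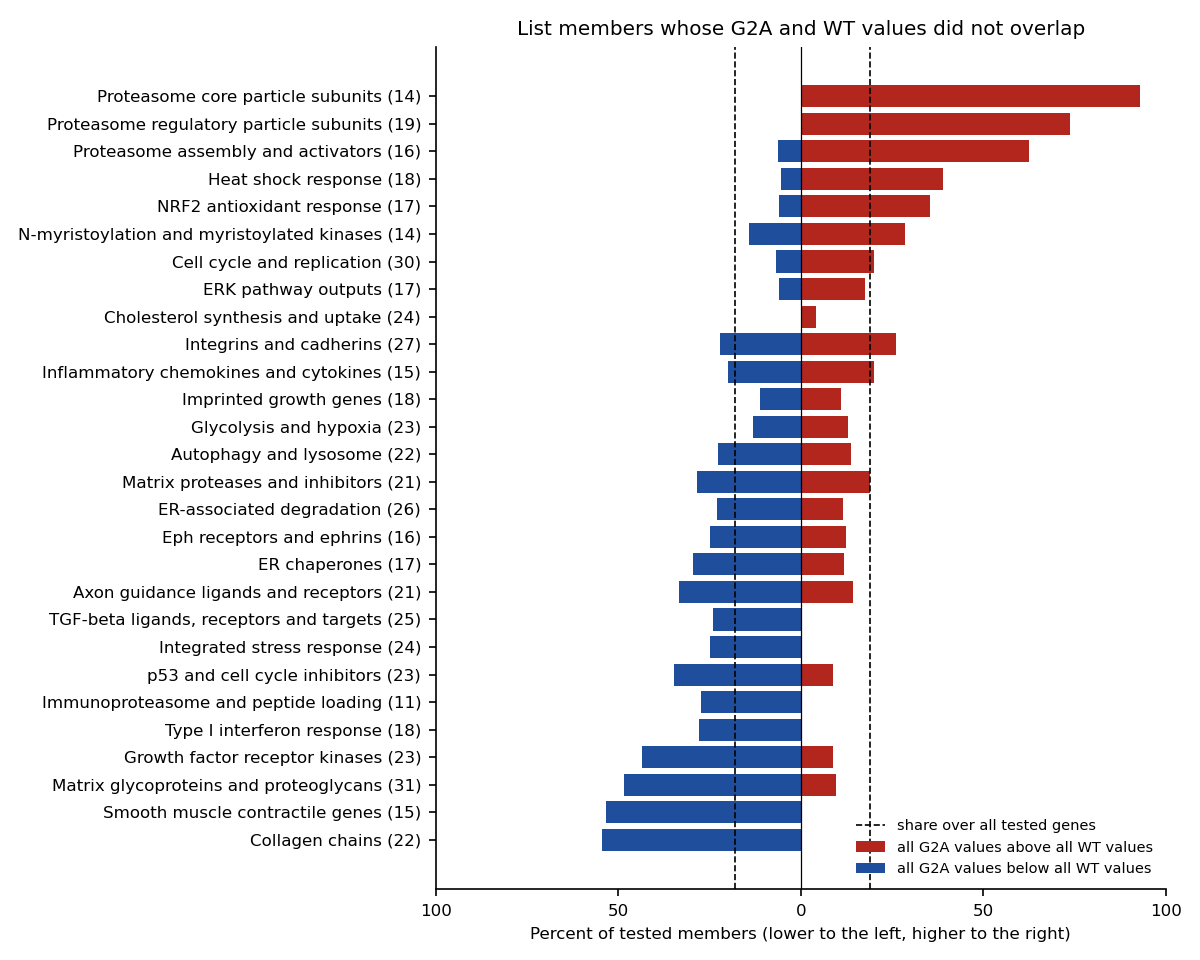
For lists of at least 10 tested genes (number in brackets), bars give the percent of members with both G2A values above all 3 WT values (right, red) or below them (left, blue). Lists of Hox genes, other transcription factors of body position and cell type markers are not shown. Dashed lines mark the same shares over all tested genes, 18.9% and 18%. Proteasome lists stand furthest to the right and collagen chains (12 of 22 lower) furthest to the left.

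Many genes of the extracellular matrix were lower in G2A. Of 22 collagen chain genes, 12 were below the WT range (54.5%, beside 18% of all genes) and 0 above it, with a median log2 difference of -0.91. Averaged over the 22 genes, WT 1 lay 0.17 above the WT mean of log2 values, WT 2 0.14 below and WT 3 0.03 below, against 0.86 below in G2A 1 and 0.80 below in G2A 2. Without WT 3, limma called 15 lower and 1 higher, beside 11.5% and 11.7% of all genes. DESeq2 called 10 lower, beside 4.86% of all genes. With the Xist class, the median log2 difference was -0.65. The collagen VI chain gene Col6a3 had 21569, 25115 and 12388 in WT and 4557 and 5834 in G2A (log2 difference -1.87, SE 0.33), and it was the collagen gene that passed with the Xist class (adjusted p 0.0381). Col12a1, a chain of a fibril-associated collagen, had 67007, 49302 and 44272 in WT and 19942 and 23481 in G2A (-1.28, SE 0.23). Col3a1, the fibrillar collagen of loose connective tissue, had 78884, 30457 and 37765 in WT and 9414 and 9562 in G2A (-2.24, SE 0.42). The chains of type I collagen followed the same order, with Col1a1 at 367214, 303500 and 251319 in WT and 147919 and 147435 in G2A. In Col6a3, Col12a1, Col1a1 and Col1a2, WT 3 was the lowest WT library and lay between the other WT libraries and G2A. In Col3a1, WT 3 lay between WT 1 and WT 2.

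Among 31 matrix glycoprotein and proteoglycan genes, 15 were below the WT range (48.4%) and 3 above it (9.68%), beside 18% and 18.9% of all genes. Calls went both ways without WT 3, where limma called 13 lower and 8 higher, beside 11.5% and 11.7% of all genes. Fn1, fibronectin, had 261251, 262068 and 120988 in WT and 89108 and 105536 in G2A, with WT 3 near G2A. Fbn1, the microfibril protein fibrillin, had 12707, 11540 and 9552 in WT and 5711 and 7511 in G2A (log2 difference -0.77, SE 0.19). The 3 above it were Fbln2 (0.80), the laminin chain gene Lamb1 (1.48) and Spp1, osteopontin (2.79). Spp1 stood at 4900, 16162 and 2068 in WT and 33291 and 42812 in G2A. With the Xist class, which sets WT 3 as the comparison, the difference was 0.06 for Fbln2, 0.45 for Lamb1 and 4.19 for Spp1. Matrix proteases and their inhibitors were mixed, with 6 of 21 lower (28.6%) and 4 higher, beside 18% and 18.9% of all genes. The share of higher genes in this list was thus near that of all genes.

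Contractile genes of smooth muscle and myofibroblasts showed 8 of 15 below the WT range (53.3%) and 0 above it, with a median of -0.52. Actg2, a smooth muscle actin, had 6880, 6287 and 1891 in WT and 293 and 391 in G2A (log2 difference -3.68, SE 0.60). Acta2, the actin that defines myofibroblasts, had 237544, 210023 and 139986 in WT and 93596 and 88852 in G2A (-1.07, SE 0.33, and -0.62 with the Xist class). In both genes WT 3 lay between WT 1 and WT 2 and the G2A libraries. Limma called 11 of the 15 lower without WT 3, but only Actg2 (adjusted p 0.0124) lower with the Xist class, where 1 gene was higher. In TGF-beta signalling, which induces matrix and contractile genes, 6 of 25 genes were below the WT range and 0 above it. The 24% lower was near the 18% of all genes, and without WT 3 limma called 7 lower and 4 higher. Beside Tgfb2, G2A values below the WT range were found for the ligand gene Bmp4, at 2870, 2406 and 1382 in WT and 490 and 323 in G2A (log2 difference -2.41, SE 0.37).

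Several receptors for growth and guidance signals were below the WT range. Among 23 receptor kinase genes 10 were lower (43.5%) and 2 higher (8.70%), beside 18% and 18.9% of all genes. Limma without WT 3 called 6 lower and 4 higher, beside 11.5% and 11.7% of all genes. The list's median log2 difference was -0.19 with all libraries and -0.04 without WT 3. Fgfr2, an FGF receptor, had 5872, 5133 and 3064 in WT and 1315 and 1431 in G2A (log2 difference -1.72, SE 0.29), and passed both without WT 3 (limma adjusted p 0.000677) and with the Xist class (0.0236). Flt1, a VEGF receptor, had 402, 356 and 369 in WT and 177 and 104 in G2A (-1.46, SE 0.29). Pdgfrb, the receptor for PDGF-B, had 17150, 11154 and 11986 in WT and 6860 and 5649 in G2A. The kinase genes above the WT range were Tyro3 (log2 difference 0.65) and Flt4 (2.31), with differences of 0.20 and 0.41 with the Xist class.

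Of 16 Eph receptor and ephrin genes, which guide cells by contact, 4 were lower and 2 higher (25% lower, near the 18% of all genes). Limma without WT 3 called 7 of the 16 lower and 5 higher, beside 11.5% and 11.7% of all genes. Epha3 had 198, 170 and 173 in WT and 18.7 and 32.4 in G2A (log2 difference -2.82, SE 0.37), with an adjusted p of 0.0407 in limma with the Xist class. Of 21 axon guidance genes, 7 were lower (33.3%) and 3 higher, among them Plxnd1, a semaphorin receptor (-0.76, SE 0.16). The calls of limma without WT 3 were 10 lower and 5 higher among these 21. The chemokine gene Cxcl12, which retains and attracts blood progenitors, had 24085, 11238 and 14243 in WT and 5162 and 4888 in G2A (-1.64, SE 0.33). Ptgs2, the inducible cyclooxygenase, stood on the other side, at 2592, 5168 and 5158 in WT and 7792 and 10437 in G2A (1.14, SE 0.35). Integrin and cadherin genes divided evenly, with 7 higher and 6 lower among 27 (25.9% and 22.2%), shares that were also near those of all genes. Limma without WT 3 called 9 of the 27 higher and 7 lower, beside 11.7% and 11.5% of all genes. The collagen receptor subunit gene Itga11 was lower, at 421, 361 and 780 in WT and 127 and 167 in G2A (-1.75, SE 0.39). The hyaluronan receptor gene Cd44 was higher, at 12449, 15888 and 20606 in WT and 30345 and 30067 in G2A (0.92, SE 0.23, and 0.55 with the Xist class).

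In some groups WT 3 held the extreme values. All 23 genes listed for the type I interferon response, the antiviral programme, had their highest value in WT 3. Isg15, a ubiquitin-like protein of this programme, had 78.3, 73.1 and 6110 normalized reads in WT 1, 2 and 3, and 69.0 and 58.8 in G2A. Stat2, which carries the interferon signal to the nucleus, had 1676, 1040 and 8524 in WT and 558 and 582 in G2A, and it was also lower without WT 3 (log2 difference -1.21, limma adjusted p 0.0198). Where the highest of the other 4 libraries was above 0 (22 genes), WT 3 exceeded it by a median of 42.2-fold and at least 1.51-fold (Ifit2). Without WT 3, the median log2 difference of the 18 tested interferon genes was 0.33, compared with -1.25 with all libraries and -5.04 with the Xist class, where 15 were called lower. Limma called 2 of the 18 higher and 1, Stat2, lower without WT 3, and 5 (27.8%) lay below all WT values. The other 5 missed the filter because WT 3 alone held at least 10 normalized reads.

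Immunoproteasome and antigen presentation genes, which interferon induces, followed the same pattern. B2m, the light chain of MHC class I, had 16063, 13427 and 49345 in WT and 12315 and 10838 in G2A. Tapbp had 4572, 2900 and 13224 in WT and 2529 and 2444 in G2A (log2 difference -1.17, SE 0.63), and Erap1 a log2 difference of -0.99 (SE 0.53). With the Xist class, the median log2 difference of the 11 tested genes of this list was -2.41. Without WT 3, limma called 2 of them higher and 0 lower, beside 11.7% and 11.5% of all genes. The interferon-inducible proteasome subunit genes Psmb8 and Psmb9 were above 10 normalized reads in WT 3 alone, at 153 and 70.5.

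**Figure D5:**
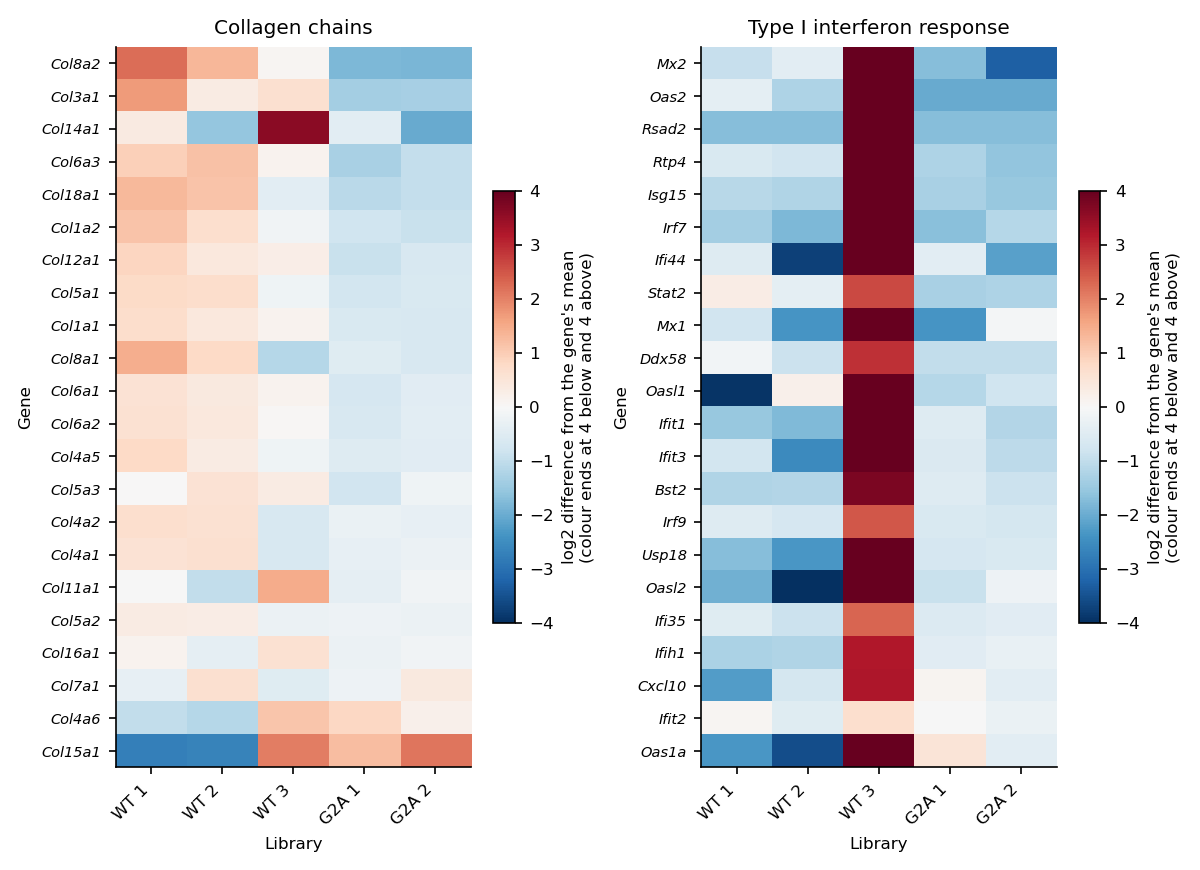
Colour gives log2(normalized reads + 1) minus the mean of the gene's 5 libraries for the 22 collagen chain genes (left) and 22 of the 23 interferon response genes (right), each ordered by the G2A minus WT difference; the scale ends at 4 below and 4 above. Most collagen genes are lowest in both G2A libraries, while the 22 interferon genes shown are highest in WT 3.

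Imprinted growth genes were highest in WT 3 in several cases as well. H19 had 599, 300 and 38900 in WT and 2487 and 1666 in G2A, and Igf2, the growth factor gene beside it, had 1264, 634 and 9667 in WT and 573 and 443 in G2A. Ndn, in contrast, was similar in WT 3 and G2A, at 177, 175 and 930 in WT and 1298 and 1260 in G2A (log2 difference 2.05, SE 0.79, and 0.46 with the Xist class). For cholesterol synthesis and uptake WT 3 was the lowest library on average, 1.05 below the WT mean of log2 values, against 0.80 and 0.25 above it in WT 1 and WT 2 and 0.17 and 0.46 below it in G2A 1 and G2A 2. Hmgcs1, an early enzyme of the pathway, had 15108, 8700 and 2168 in WT and 3539 and 2943 in G2A. In this list of 24, 12 were called lower and 1 higher without WT 3, yet 0 lay below the range of all 3 WT libraries and 1 above it.

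The labelled cell type was checked against its markers. Fibroblast genes such as Col1a1, Vim (228152, 201957 and 92478 in WT, 136137 and 123027 in G2A) and Thy1 (11880, 9420 and 10743 in WT, 11793 and 9977 in G2A) were present in all 5 libraries. Of the 12 fibroblast markers, 6 lay below the WT range (50%, beside 18% of all genes) and 1 above it. The median log2 difference of the list was -0.61, and without WT 3 limma called 7 lower and 2 higher. Of 12 macrophage and blood markers, 9 missed the filter, 4 of them at 0 in every library, and the summed list ran from 124 to 494 in WT and was 276 and 208 in G2A. Ptprc and Tyrobp, which define leukocytes, were at 0 in both G2A libraries. Csf1r, the receptor for the macrophage growth factor, had 9.27, 2.09 and 46.1 in WT and 81.8 and 65.7 in G2A (log2 difference 2.70, SE 1.20, and 0.66 with the Xist class). Of 14 epithelial markers, 8 missed the filter. The simple epithelial keratin genes Krt19 (1310, 1953 and 1515 in WT, 3439 and 3335 in G2A, log2 difference 1.11, SE 0.19) and Krt18 (0, 3.13 and 25.4 in WT, 169 and 204 in G2A, 5.29, SE 1.41, and 2.82 with the Xist class) lay above the WT range, while the cadherin gene Cdh1 lay below it. Of the 6 tested, 3 were higher and 2 lower without overlap. The summed epithelial list ran from 1487 to 2138 in WT and was 3746 and 3620 in G2A, and most of each sum was Krt19. Of 9 tested markers of neural and neural crest cells, 3 were lower and 2 higher without overlap, with a median log2 difference of -1.62, and DESeq2 called 4 lower and 2 higher. Map2, a microtubule protein of dendrites, was on the lower side, at 8218, 5257 and 1655 in WT and 1309 and 1401 in G2A (-1.62, and -0.29 with the Xist class). Tubb3, a tubulin of neurons, was on the higher side and had 87.6, 223 and 149 in WT and 558 and 501 in G2A (1.88, SE 0.43). Of the fibroblast transcription factor genes, Prrx1 was lower, at 16041, 11652 and 12654 in WT and 6748 and 7677 in G2A (-0.89, SE 0.17), and Twist1 overlapped. The part of other cells or of cell state in any result was not tested.

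The G2A minus WT difference in MEFs was set against that between G2A and WT E12.5 fetal livers (3 of each), which share no library with the MEFs. As said above, genotype in the MEFs cannot be told apart from kind of cells, for WT 1 and WT 2 or for WT 3. The same limit holds for each comparison with liver. The difference of both log2 differences passed an adjusted p of 0.05 (Benjamini-Hochberg, limma fits in each tissue) in 239 of 10818 genes measured in both (2.21%), of which 94 (0.869%) were higher in MEFs. This count depended on single libraries: it was 11 without WT 1, 496 without WT 2, 3260 without WT 3, 2 without G2A 1 and 2 without G2A 2. All 33 proteasome subunit genes lay above 0 in MEFs and below 0 in liver, where the median log2 difference was -0.21, and 7 of them passed the test of the difference. Psmc1 had a log2 difference of 0.54 in MEFs and -0.23 in liver, and its difference between tissues did not pass (adjusted p 0.0592). Collagen chain genes lay below 0 in 19 of 22 in MEFs and above 0 in 16 of 19 in liver, with medians of -0.91 and 0.88, and 8 passed the test of the difference. Mmp2 stood at -3.38 in MEFs and 0.51 in liver (adjusted p of the difference 0.00130).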

How the data were processed

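Per the labels' protocols, RNA was isolated with Trizol, sequenced by BGI, cut to 50 bp reads and mapped to mm9 with TopHat. The submitters' processing notes name TopHat2 2.1.1, Cufflinks 2.2.1, mm9 and mm10. Which counting tool, annotation, strand setting and size factor method were used is not given in the sources used here, so overlapping and near-identical genes are uncertain. The deposited MEF values are a signal, reads per gene divided by a size factor (0.958 to 1.06), as tested on the values: 100% became whole (tolerance 0.01) after rescaling, and the factors equal DESeq2's median-of-ratios factors. The deposited liver values were read as FPKM of the authors, since Cufflinks is named and they are not whole. The MEF table's columns carry WT 1 to 3 and G2A 1 and 2.

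In limma 3.58.1, genotype was fitted to log2(value + 1) (variance trend, Benjamini-Hochberg adjustment, threshold 0.05) in R 4.3.3 over 13241 MEF genes and, at FPKM of at least 1 in at least 3 livers, 12938 liver genes. Effects in MEFs and liver were compared over 10818 genes by their difference over its combined standard error. The units were unlike, normalized reads in MEFs and FPKM in liver. Adding 1 draws the liver difference of genes with low FPKM towards 0, such as Lims2 (0.87, 0.65 and 1.49 in WT livers). A fold is on the log2(value + 1) scale and understates that of genes with low values. Alternatives were a pseudocount of 0.1, no filter, a filter of 50, quantile normalization, TMM scaling, no variance trend, library weights, edgeR 4.0.16 and DESeq2 1.42.0 on recovered reads, a replicate block and each library left out. Added after seeing the data were the Xist class as a term, edgeR without WT 3, and the leave-outs for liver. The scripts were tested on simulated data.

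The comparison, gene lists and rules were chosen with earlier results of these data known. Named genes were Psmc1, Nmt1 and Nmt2, the 10 smallest p per direction (no gene passed), and from each list the 2 smallest p; not all are reported. Markers, the other genes of the proteasome, matrix, receptor, interferon, imprinted and cholesterol lists that are named (such as Psmb5, Psmb6, Psmd1, Nfe2l1, Ngly1, Col1a1, Fn1, Spp1, Flt4, Cd44, Isg15, H19 and Hmgcs1) and the promoters were chosen after their values were seen. Gene positions come from GENCODE on NCBIM37 (mm9). 1 gene of the interferon list is not reported here.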

Additional observations from a re-analysis of the deposited data

Results flagged for a closer look

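For 37 genes named above, the log2 difference in MEFs minus that in liver passed an adjusted p of 0.05 (limma fits, Benjamini-Hochberg over 10818 genes, of which 239 or 2.21% passed). Each value below is that MEF minus liver difference. Most of these genes were named for a small p in the same MEF libraries or after their values were seen. That choice favours passing, so their number is a description and not to be set against the 2.21%. The MEF libraries enter each difference, and the count of 239 fell to 2 without either G2A library.

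Higher in MEFs relative to liver were Nmt1 (0.72), Nmt2 (0.77), C3ar1 (5.48), Dock8 (1.82), Mogat2 (1.81), Zwint (0.78), Rpl21 (0.81) and Tubb3 (3.20). The same held for the proteasome genes Psmb3 (0.99), Psma5 (0.66), Psmd3 (0.77), Psmc2 (0.81), Psmc5 (0.77) and Psmd9 (0.58), and for Nploc4 (0.62) and Nqo1 (1.25).

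Lower in MEFs relative to liver were the matrix and secreted genes Mmp2 (-3.89), Col3a1 (-3.37), Col6a3 (-2.81), Tgfb2 (-2.60) and Bmp4 (-3.16). Receptor genes on this side were Epha3 (-3.98), Unc5c (-3.34), Ednrb (-2.14), Flt1 (-2.20), Fgfr2 (-2.12) and Fas (-2.60). Stress genes were Trib3 (-3.38), Atf5 (-1.74) and Hspa5 (-0.92). The others were Plagl1 (-2.69), Lims2 (-2.88), Pde8a (-1.44), Arid5b (-1.46), Marcks (-1.84), Perp (-2.61) and Me1 (-1.09), the last of which was above 0 in both tissues.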

How the results depend on the processing

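The 0 calls in either direction held with a pseudocount of 0.1, no filter, a filter of 50, quantile normalization, TMM scaling, no variance trend and edgeR. Library weights gave 3149 genes higher and 2975 lower, with the lowest weight on WT 3 (0.120), and DESeq2 gave 391 and 644. A replicate block over WT 1, WT 2, G2A 1 and G2A 2 gave 1915 higher and 1869 lower; the labels do not say what a shared number means, and this fit also leaves out WT 3. Leaving out 1 library gave from 0 to 1550 higher and from 0 to 1525 lower, all of the calls without WT 3, and edgeR without WT 3 gave 1571 and 1590. With the Xist class, the lone WT 3 is assumed to vary like the others, and 212 were higher and 245 lower. The MEF against liver count of 239 ranged from 2 to 3260 when 1 MEF library was left out. Of 75 genes whose log2 difference is given, all but Psmc3 kept their direction in all 17 alternatives. Psmc3 (0.14) was at -0.0098 with the replicate block, -0.0098 without WT 3 and -0.0097 in edgeR without WT 3, none past the threshold, and at most at 0.23 without another library. With 3 against 2 libraries and WT 3 apart, a p above the threshold does not show that a gene was alike in both genotypes, and genes below 10 normalized reads in all but 1 library were not tested.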

Other observations

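G2A 1 held a low level of genes that mark WT 1 and WT 2. The genes with at least 500 normalized reads in WT 1 and WT 2 and at most 2 reads in WT 3 and G2A 2 numbered 9: Ddx3y, Eif2s3y, Kdm5d and Uty of the Y chromosome, Hoxd10, Hoxd11, Lmx1b, C130021I20Rik and Cxcl3. In G2A 1 each had at least 8 reads and stood at 0.659% to 2.02% of its mean in WT 1 and WT 2, with a median of 1.18%. Hoxd13, the most distal gene of its cluster, had 13210 and 12675 normalized reads in WT 1 and WT 2, 0 in WT 3, 105 in G2A 1 and 6.86 in G2A 2. These genes were chosen after their values were seen, and where the reads come from was not tested.

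Genes silent in WT 1 and WT 2 set WT 3 apart from them in turn. Hoxc6 had 0 and 0 normalized reads there, 1726 in WT 3, 1448 in G2A 1 and 1406 in G2A 2. Srd5a2, which encodes a steroid reductase, was at 0 and 0, with 867 in WT 3 against 7.89 and 16.7 in G2A. The glutamate receptor gene Gria2 had 772 in WT 3 and 153 and 156 in G2A, and Gfra2, a receptor for neurturin, had 804 in WT 3 and 343 and 346 in G2A. Cdkn2a, the tumour suppressor locus often lost in immortal fibroblasts, had 4366, 4062 and 12089 in WT and 9562 and 8182 in G2A.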
